A study of Mus musculus with 12 samples.

Results

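The interferon-stimulated and GTPase genes are a set of 47 mouse genes: the chains of the interferon receptors, the transcription factors that act below them, and genes known to be raised by interferon. They were chosen by gene symbol, and 47 of 47 matched 1 of the 27179 Entrez identifiers in the count table. For this work 30 were placed as type I type (genes of the alpha and beta interferon response), 13 as interferon-gamma type (Irf1, Irf8 and the immunity-related and guanylate-binding GTPases), and 4 as receptors. Many of these genes respond to both interferons, so the division is one of convention.

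The cells came from 1 primary mouse leukemia, ALL101, a T-cell acute lymphoblastic leukemia (T-ALL) that arose in a Vav-tTA;TRE-GFP-shIkaros mouse. Both groups carry the same transgenes: the Vav promoter, active in blood cells, drives the tetracycline-off transactivator tTA, which in turn drives a GFP-linked hairpin RNA against Ikaros (gene Ikzf1). Leukemic recipient mice were untreated (3 mice, spleen cells labelled GFPhigh) or received doxycycline (Dox) for 3 days, which switches the hairpin off (3 mice, labelled GFPmid). The labels describe sorting for all mice, but untreated mouse 3 has INJ in its library name where the others name the sort, and its sorting is therefore uncertain. The comparison asks what happens to the expression of established leukemia cells when Ikaros returns. Treatment and sort gate cannot be told apart, and no hairpin-free leukemia given doxycycline was analysed here. The age and strain of the recipients are not given in the labels. The 6 mice carry the same leukemia, so the spread between them is that of recipients, not of independent tumours.

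Type I interferons signal through the paired chains IFNAR1 and IFNAR2 and the kinases TYK2 and JAK1, which lead to the factor ISGF3, a complex that includes STAT2 and IRF9. ISGF3 binds the interferon-stimulated response element (ISRE). Interferon-gamma signals through IFNGR1 and IFNGR2 with JAK1 and JAK2 and acts at the gamma-activated sequence (GAS) and through IRF1. In T cells these genes are expressed at a low tonic level and rise after infection or interferon exposure.

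Each RNA was sequenced in 2 runs, which were summed, giving 29904744 to 44949303 counts per mouse. Levels are in CPM, counts scaled to a common library size with edgeR's TMM factors. A gene with no count in a mouse may have had up to 0.0667 to 0.10 CPM there (3 counts, counting error only). Ikzf1, the hairpin's target, lay between 149.6 and 159 CPM in the untreated mice and between 1438 and 1523 CPM in the doxycycline mice, in the direction of the labels. Of 10 T-cell markers, 10 were above 1 CPM in both groups. Their summed level was 5537 to 5620 CPM untreated and 6290 to 6837 CPM after doxycycline. Of them 5 were higher and 2 lower, the latter being Ptcra (125 to 27.7 CPM on average) and Cd3g (528 to 386 CPM). Summed levels were 27.5 to 46.8 and 72.6 to 96.8 CPM for 10 myeloid markers, 5.84 to 45.3 and 64.0 to 80.5 CPM for 7 erythroid markers, and at most 2.28 CPM for 7 B-cell and 2.57 CPM for 6 NK-cell markers. Of the myeloid markers 5 were higher, led by Itgam (9.86 to 44.0 CPM on average) and Csf1r (4.50 to 15.4 CPM), while Mpo, S100a8 and S100a9 were lower. The B-cell marker Pax5 and the NK-cell marker Klra8 had no count. Of 7 plasmacytoid dendritic cell markers, Siglech reached at most 0.0335 CPM, and the list, which includes the member Irf8, summed to 190.1 to 265 CPM untreated and 107.8 to 226 CPM after doxycycline. Most of this sum was Ly6d (168 and 126 CPM on average, not called) and Tcf4 (54.5 and 15.6 CPM, lower). Spib, Klk1 and Cox6a2 averaged at most 2.04 CPM in either group. Markers above 1 CPM numbered 9 of 10 myeloid in both groups, 5 and then 7 of 7 erythroid, and 5 and then 3 of 7 plasmacytoid dendritic cell markers. The part of these other cell types in the results below was not tested.

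After doxycycline the set did not move one way. Of 46 members tested, 21 rose, 10 fell and 15 did not pass (edgeR quasi-likelihood test, Benjamini-Hochberg adjusted p under 0.05 over 13134 genes). Over all genes tested 24.8% were higher and 25.2% lower, 50.0% in either direction, and the members' share of 67.4% is to be read against that background. A change of at least 2-fold was called for 8 higher and 6 lower members, against 8.22% and 5.87% of all genes (14.1% together). The median log2 fold change, doxycycline minus untreated, was 0.41 for the members and -0.0037 for all genes. The median absolute log2 fold change was 0.70 for the members and 0.34 for all genes. The values of the 3 mice of each group did not overlap for 22 members that lay higher and 10 that lay lower (background 30.2% and 30.9%, together 61.2%). In these bulk samples fewer cells that express a gene and less RNA per cell cannot be told apart.

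**Figure D1:**
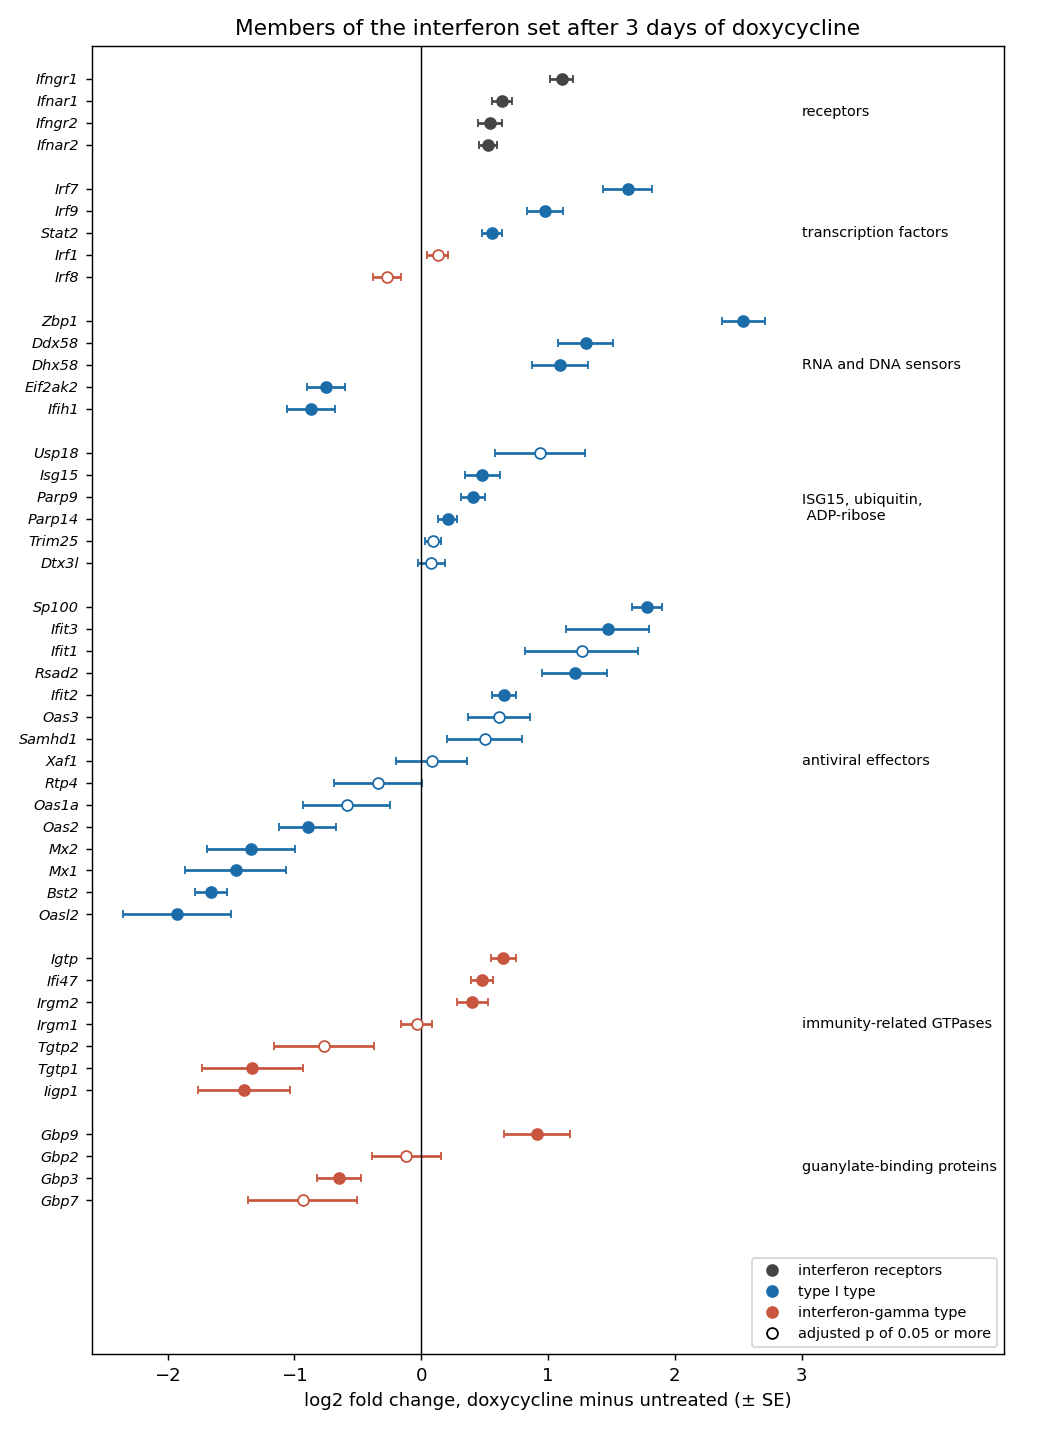
Log2 fold change (doxycycline minus untreated, 3 mice each) with its standard error for the 46 tested members, grouped by role. Filled points have an edgeR adjusted p under 0.05. The 4 receptor chains lie to the right of 0, whereas the antiviral effectors run from Sp100 (1.78) to Oasl2 (-1.93).

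Members that share the interferon response element in their promoter moved in both directions. RefSeq promoter sequences (GRCm38.p6, from 250 bases before to 50 after the start) were at hand for 36 of the 47 members. The ISRE core, GAAA then any 2 bases then GAAA, searched on both strands, was found in 19 of these 36 (52.8%) and in 3.99% of 27025 genes. It was present in 11 of 21 type I type members, 8 of 11 interferon-gamma type members and 0 of 4 receptors. Among members that rose 7 of 16 held it, among those that fell 5 of 6, and among those not passing 7 of 13 (Ifi44 was not tested). These shares depended on the window: with only the 250 bases before the start they were 6 of 16, 3 of 6 and 7 of 13, and the type I type share was 8 of 21. The GAS core TTCNNNGAA was found in 14 of 36 members (38.9%) and 9.55% of all genes, in 7 of 11 interferon-gamma type and 5 of 21 type I type members. The core TGGGAA, a sequence Ikaros can bind, was found in 12 of 36 members (33.3%) against 28.3% of all genes. Of 27 ISRE matches, 2 overlapped a match to the GAS or TGGGAA core. A match is a string of letters in this window, not a measured binding site.

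The stretches before the start that hold the ISRE are shown for 5 members that rose and 3 that fell, on the gene's own strand, with the ISRE letters in capitals. A match on the opposite strand reads TTTC, 2 bases, TTTC. They lie at chr4:156200850-156200921 (Isg15, minus strand), chr19:34583348-34583441 (Ifit3, plus), chr12:26456538-26456597 (Rsad2, minus), chr11:58199497-58199555 (Igtp, plus), chr11:58214888-58214947 (Irgm2, plus), chr8:71537562-71537627 (Bst2, minus), chr11:48992289-48992348 (Tgtp1, minus) and chr3:142559974-142560039 (Gbp3, plus) of GRCm38.
Isg15: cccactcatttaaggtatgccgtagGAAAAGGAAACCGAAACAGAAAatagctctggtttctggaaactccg
Ifit3: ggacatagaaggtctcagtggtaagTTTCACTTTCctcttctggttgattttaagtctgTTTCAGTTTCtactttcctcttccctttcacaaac
Rsad2: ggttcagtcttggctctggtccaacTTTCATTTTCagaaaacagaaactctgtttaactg
Igtp: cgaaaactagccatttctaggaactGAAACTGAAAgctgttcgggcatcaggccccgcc
Irgm2: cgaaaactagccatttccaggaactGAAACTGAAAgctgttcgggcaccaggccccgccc
Bst2: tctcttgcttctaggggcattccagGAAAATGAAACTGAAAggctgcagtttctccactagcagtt
Tgtp1: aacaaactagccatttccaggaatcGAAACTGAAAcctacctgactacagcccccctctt
Gbp3: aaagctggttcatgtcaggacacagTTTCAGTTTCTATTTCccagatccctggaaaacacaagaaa
Isg15 has 3 overlapping matches and rose, whereas Bst2 has 2 overlapping matches of the same kind and fell. The stretches of the neighbours Igtp and Irgm2, both of which rose, were the same at 57 of 59 bases.

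All 4 receptor chains rose, and none of their groups overlapped. Over all genes tested 24.8% were called higher, and 30.2% lay higher without overlap. Ifngr1, the ligand-binding chain for interferon-gamma, was at 109, 122 and 115 CPM in untreated mice 1 to 3 and at 277, 227 and 243 CPM in doxycycline mice 1 to 3. It rose 2.15-fold (log2 1.11 ± 0.09 SE, edgeR adjusted p = 7.8e-05). Its partner Ifngr2 was at 15.9, 17.0 and 19.0 against 24.1, 26.3 and 25.0 CPM, a rise of 0.54 ± 0.10 log2 units (edgeR adjusted p = 0.0023). Ifnar1 and Ifnar2, the type I receptor chains, went from 79.4, 81.5 and 73.0 to 130.1, 111 and 122 CPM and from 50.2, 52.7 and 54.5 to 72.8, 74.3 and 79.2 CPM. Their log2 fold changes were 0.64 ± 0.08 and 0.52 ± 0.07 (edgeR adjusted p = 0.00049 and 0.00062). The median SD of the receptors between mice was 0.08 log2 units untreated and 0.09 after doxycycline. All 4 stayed called under each alternative tried.

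The ISGF3 partners rose, whereas the interferon-gamma type factors did not pass. Irf7, which drives type I interferon genes, was at 8.92, 11 and 8.28 CPM untreated and 35.7, 21.9 and 29.8 CPM after doxycycline. It rose 3.09-fold (log2 1.63 ± 0.19, edgeR adjusted p = 0.00049). Irf9, the DNA-binding subunit of ISGF3, was at 27.3, 30.1 and 29.0 against 69.0, 45.7 and 55.0 CPM, a rise of 0.97 ± 0.14 log2 units (edgeR adjusted p = 0.0011). Stat2 was at 28.5, 31.6 and 30.8 against 47.7, 43.4 and 42.9 CPM and rose by 0.56 ± 0.08 log2 units (edgeR adjusted p = 0.00083). For each of these 3 genes every treated mouse lay above every untreated mouse, as was so for 30.2% of all genes. Irf1, a main target of interferon-gamma, was at 105, 95.0 and 85.7 against 105, 99.2 and 109 CPM, with overlapping groups and a log2 difference of 0.13 ± 0.09 (edgeR adjusted p = 0.242). Irf8, a factor of myeloid and B cells, was at 14.8, 14.2 and 12.7 against 12, 10.7 and 11.8 CPM. Its groups did not overlap, but the difference of -0.27 ± 0.11 log2 units did not pass (edgeR adjusted p = 0.068).

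Each of the 5 nucleic acid sensors changed, 3 upwards and 2 downwards, beside 50.0% of all genes (24.8% higher, 25.2% lower). Zbp1 (chromosome 2, 173206612 to 173218959), a sensor of Z-form nucleic acid that can trigger necroptosis, had the largest rise of the 46 tested members. It was at 12.3, 10.7 and 10.1 CPM untreated and 81.1, 55.5 and 56.1 CPM after doxycycline, 5.82-fold higher (log2 2.54 ± 0.17, edgeR adjusted p = 6.7e-05). Ddx58, encoding the RNA sensor RIG-I, went from 24.8, 27.8 and 19.6 to 71.5, 42.4 and 63.5 CPM (log2 1.30 ± 0.22, edgeR adjusted p = 0.0033). Dhx58, encoding its relative LGP2, went from 4.63, 4.06 and 4.32 to 11.2, 6.26 and 10.4 CPM (log2 1.10 ± 0.22, edgeR adjusted p = 0.0040). In these 3 genes doxycycline mouse 1 was the highest of its group. The third helicase of this family, Ifih1, encoding MDA5, moved the other way, from 10.6, 11.2 and 6.98 to 5.55, 5.33 and 4.87 CPM. The log2 fold change was -0.87 ± 0.19 (edgeR adjusted p = 0.0058). Eif2ak2, encoding the RNA-dependent kinase PKR that halts translation, went from 55.1, 56.7 and 47.8 to 35.8, 24.3 and 34.6 CPM (log2 -0.75 ± 0.15, edgeR adjusted p = 0.0045). For all 5 sensors the groups did not overlap, as was so for 61.2% of all genes.

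**Figure D2:**
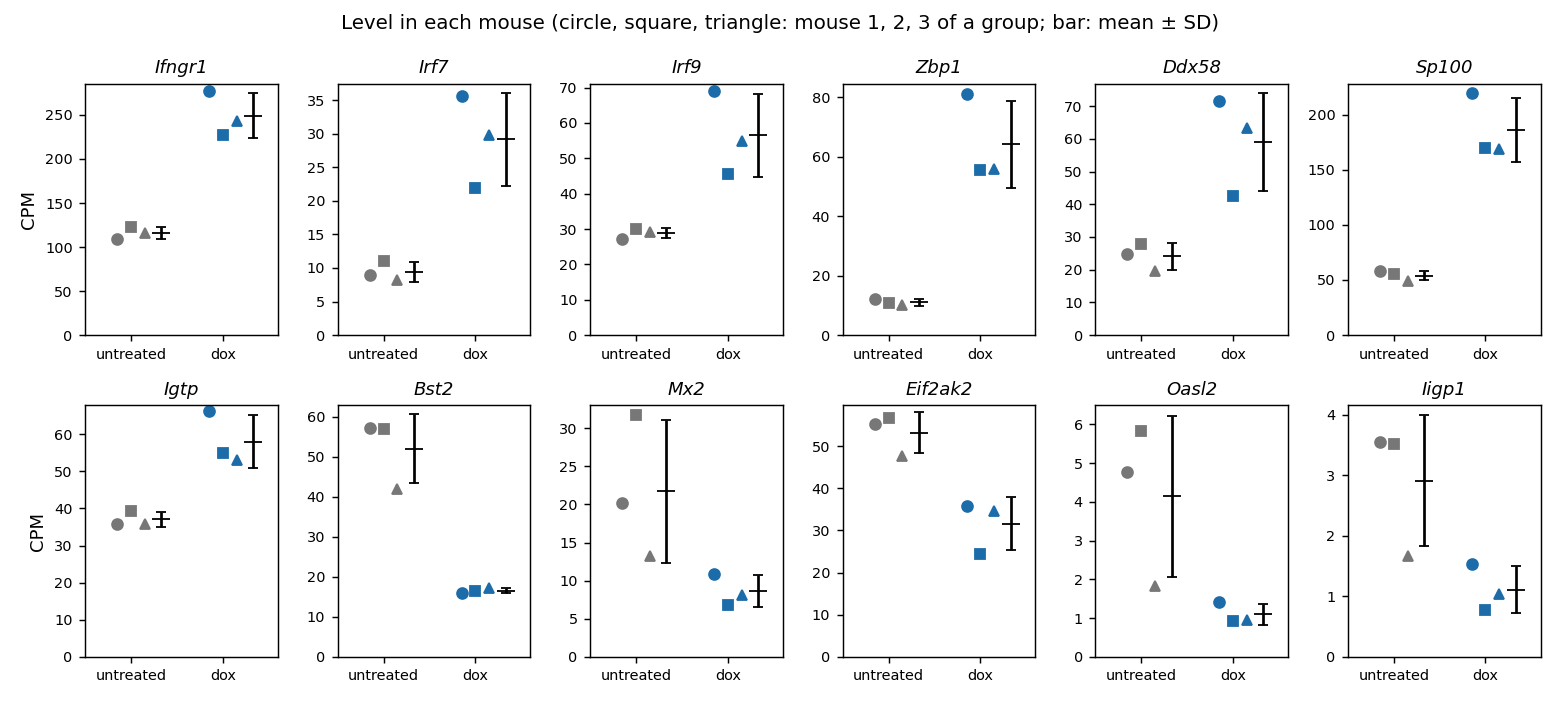
CPM in each of the 6 mice for 12 members, 7 that rose (Ifngr1, Irf7, Irf9, Zbp1, Ddx58, Sp100, Igtp) and 5 that fell. Doxycycline mouse 1 (blue circle) is the highest treated mouse in each rising gene, and Bst2 lies between 15.9 and 17.1 CPM in the treated mice.

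Of 6 genes of ISG15 conjugation and ADP-ribosylation, 3 rose and 0 fell, beside 24.8% and 25.2% of all genes. Their median absolute log2 fold change was 0.31, near the 0.34 of all genes. Isg15, a ubiquitin-like protein, was at 11.7, 14.1 and 10.7 against 19.4, 15.8 and 15.7 CPM (log2 0.48 ± 0.14, edgeR adjusted p = 0.0197). Parp9 and Parp14, ADP-ribosyltransferase family genes, had log2 fold changes of 0.41 ± 0.09 and 0.21 ± 0.07 (edgeR adjusted p = 0.0076 and 0.0406). The calls of Isg15 and Parp14 did not hold when any of several mice was left out. Their edgeR adjusted p became 0.0682 and 0.11 without untreated mouse 1, and 0.0709 and 0.115 without doxycycline mouse 1. Isg15 also lost its call when untreated mouse 3 was left out (0.06), and Parp14 when untreated mouse 2 (0.0818) or 3 (0.115) or doxycycline mouse 2 (0.0561) was. Usp18, the enzyme that removes ISG15 and restrains the type I receptor, was at 14.8, 17.7 and 14.6 CPM untreated and 30.2, 44.0 and 16.3 CPM after doxycycline. Its log2 difference of 0.94 ± 0.35 did not pass (edgeR adjusted p = 0.0717). It did pass without doxycycline mouse 3 (edgeR adjusted p = 0.0022), the treated mouse that overlapped the untreated range. Trim25, a ubiquitin ligase acting on RIG-I, had one of the most even levels, 204 to 221 CPM untreated and 222 to 230.2 CPM after doxycycline. Dtx3l, the ubiquitin ligase partner of PARP9, lay at 111 to 134 and 121 to 150.2 CPM. Neither passed (edgeR adjusted p = 0.238 and 0.565).

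The antiviral effectors held both rises and falls. Of 15 tested, 4 rose, 5 fell and 6 did not pass, shares near those of all genes (24.8% higher, 25.2% lower). The size of the changes was not near that of all genes: the median absolute log2 fold change was 1.21, beside 0.34. At 2-fold or more 3 rose and 4 fell, beside 8.22% and 5.87% of all genes. Sp100 (chromosome 1, 85649948 to 85709998), encoding a nuclear body protein, went from 57.8, 55.0 and 49.3 to 219.6, 169.8 and 169 CPM, 3.44-fold higher (log2 1.78 ± 0.12, edgeR adjusted p = 4.9e-05). The IFIT genes, whose proteins bind foreign RNA, all had positive differences. Ifit2 went from 55.7, 56.2 and 56.5 to 95.7, 92.5 and 76.5 CPM (log2 0.65 ± 0.09, edgeR adjusted p = 0.00077). Ifit3 was low, with 17 to 19 counts per untreated mouse and 44 to 77 per treated mouse, or 0.512 to 0.637 and 1.01 to 2.06 CPM (log2 1.47 ± 0.33, edgeR adjusted p = 0.0062). Ifit1 was at 3.62, 4.18 and 2.53 against 13.2, 3.86 and 7.95 CPM, and its log2 difference of 1.27 ± 0.45 did not pass (edgeR adjusted p = 0.0531). Without doxycycline mouse 2, the treated mouse inside the untreated range, Ifit1 did pass (edgeR adjusted p = 0.0027). Rsad2, encoding viperin, rose from 4.16, 4.0 and 5.39 to 14.8, 7.77 and 8.90 CPM (log2 1.21 ± 0.26, edgeR adjusted p = 0.0057). As a set, the rising effectors had their highest treated value in doxycycline mouse 1.

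Bst2 (chromosome 8, 71534255 to 71537472) encodes tetherin, a membrane protein that retains budding virus, and had the smallest p of the members that fell. It was at 57.1, 56.9 and 42.1 CPM untreated and 15.9, 16.5 and 17.1 CPM after doxycycline, a fall of 3.15-fold (log2 -1.66 ± 0.12, edgeR adjusted p = 6.6e-05). Oasl2, an oligoadenylate synthetase family gene, went from 4.76, 5.84 and 1.83 to 1.41, 0.932 and 0.943 CPM and fell by 1.93 ± 0.43 log2 units (edgeR adjusted p = 0.0071). Mx1 and Mx2, dynamin-like antiviral GTPases, are annotated in RefSeq as transcribed pseudogenes of the C57BL/6J reference. Mx2 went from 20.2, 31.7 and 13.2 to 10.9, 6.79 and 8.12 CPM, and Mx1 from 5.03, 8.82 and 3.16 to 2.50, 1.40 and 2.30 CPM. Their log2 fold changes were -1.34 ± 0.35 and -1.46 ± 0.40 (edgeR adjusted p = 0.0191 and 0.0178). With doxycycline mouse 2 left out neither passed (edgeR adjusted p = 0.0793 for Mx2 and 0.0535 for Mx1), nor did Mx2 without doxycycline mouse 3 (0.0577). Of the oligoadenylate synthetases that activate RNase L, Oas2 fell by 0.89 ± 0.22 log2 units (edgeR adjusted p = 0.0106). Oas1a and Oas3 had differences of -0.59 ± 0.34 and 0.61 ± 0.24 that did not pass (edgeR adjusted p = 0.187 and 0.0713), although Oas3 passed without doxycycline mouse 2 (0.00054). Rtp4, Xaf1 and Samhd1, which encodes a nucleotide-cleaving restriction factor, overlapped between groups (edgeR adjusted p = 0.454, 0.823 and 0.193). Ifi44 was not tested: it had 5, 0 and 1 counts in the untreated and 6, 14 and 11 in the doxycycline mice.

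The interferon-gamma type GTPases did not move as 1 family. Of 7 immunity-related GTPases 3 rose, 2 fell and 2 did not pass, beside 24.8% higher and 25.2% lower over all genes. The immunity-related GTPases attack the vacuoles of intracellular pathogens, and the proteins of Irgm1, Irgm2 and Igtp regulate the other members. Igtp went from 35.8, 39.4 and 35.8 to 66.2, 54.8 and 52.9 CPM and rose by 0.65 ± 0.10 log2 units (edgeR adjusted p = 0.0011). Ifi47, the most abundant of them, went from 100.2, 88.8 and 81.5 to 132, 126 and 118 CPM (log2 0.48 ± 0.09, edgeR adjusted p = 0.0026). Irgm2 rose by 0.40 ± 0.12 log2 units (edgeR adjusted p = 0.0248), a call that did not hold when untreated mouse 1 (0.0857) or 3 (0.0711) or doxycycline mouse 1 (0.0821) was left out. Irgm1 had a difference of -0.04 ± 0.12 (edgeR adjusted p = 0.822). Of the effector GTPases, Iigp1 and Tgtp1 fell. Iigp1 was at 3.55, 3.52 and 1.66 CPM untreated and 1.53, 0.777 and 1.03 CPM after doxycycline (log2 -1.40 ± 0.36, edgeR adjusted p = 0.0126). Tgtp1 was at 3.12, 3.55 and 1.43 against 1.47, 0.688 and 1.08 CPM (log2 -1.33 ± 0.40, edgeR adjusted p = 0.0231), and doxycycline mouse 1 lay just inside the untreated range. The call of Tgtp1 did not hold when untreated mouse 1 (edgeR adjusted p = 0.0724) or 2 (0.0801) or doxycycline mouse 2 (0.06) or 3 (0.0661) was left out. Tgtp2, its close copy, had a difference of -0.77 ± 0.39 that did not pass (edgeR adjusted p = 0.147), except without doxycycline mouse 1 (0.0273). Reads may be shared or lost between such copies, so the levels of both are uncertain.

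Of the guanylate-binding proteins, large GTPases induced by interferon-gamma, 1 rose, 1 fell and 2 did not pass. These shares were near those of all genes (24.8% higher, 25.2% lower). Their median absolute log2 fold change was 0.78, beside 0.34 for all genes. Gbp9 was at 23.8, 25.7 and 20.1 CPM untreated and 62.3, 35.5 and 33.4 CPM after doxycycline (log2 0.91 ± 0.26, edgeR adjusted p = 0.0271). Its call was lost without any 1 untreated mouse (edgeR adjusted p = 0.0726, 0.0656 and 0.0827 without mouse 1, 2 and 3). Gbp3 was at 13.3, 14.1 and 8.95 against 8.08, 7.46 and 7.61 CPM, a fall of 0.65 ± 0.17 log2 units (edgeR adjusted p = 0.0142), and lost its call without untreated mouse 1 (0.0535) or 2 (0.0594). Gbp7 was at 58.9, 59.6 and 30.0 against 38.0, 15.4 and 24.6 CPM, with overlapping groups (edgeR adjusted p = 0.129). Gbp2 lay at 8.28 to 15.2 and 9.23 to 14.9 CPM (edgeR adjusted p = 0.738). These genes have similar sequences, and the counting of reads with several matches is not stated.

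Side by side, 13 of 29 tested type I type members rose and 7 fell, with a median log2 fold change of 0.48. Of 13 interferon-gamma type members 4 rose and 3 fell, with a median of -0.12. The share called was 69.0% of type I type and 53.8% of interferon-gamma type members, the latter near the 50.0% of all genes (24.8% higher, 25.2% lower). The largest rise was 2.54 (Zbp1) in the first group and 0.91 (Gbp9) in the second, and the largest falls were 1.93 (Oasl2) and 1.40 (Iigp1) log2 units. A rise of at least 2-fold was called for 7 type I type and 0 interferon-gamma type members, beside 8.22% of all genes. A fall of that size was called for 4 and 2, beside 5.87% of all genes. The difference between the groups was not tested. The number of interferon-gamma type members called was 3 without untreated mouse 1 and 4 without untreated mouse 2, so that count hangs on single mice.

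Members varied together between mice of a group. Doxycycline mouse 1 had the highest log2 CPM of its group in 41 of 46 members (89.1%), while over all genes tested it was highest in 30.6%. Doxycycline mouse 2 was lowest in 32 members (69.6%, all genes 36.7%). Among the untreated mice, mouse 2 was highest in 30 members (65.2%, all genes 25.0%) and mouse 3 lowest in 34 (73.9%, all genes 40.6%). The order held in both types: doxycycline mouse 1 was highest in 27 of 29 type I type and 12 of 13 interferon-gamma type members, and untreated mouse 3 was lowest in 21 and 12. Members that rose (Irf7, Ddx58) and members that fell (Mx2 in the untreated, Eif2ak2 in the treated mice) shared this order. The 5 members not highest in doxycycline mouse 1 were Ifnar2, Irf1 and Bst2 (highest in mouse 3) and Ifngr2 and Usp18 (highest in mouse 2). The members are co-regulated genes of the same 6 libraries and do not replicate one another.

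The median SD of log2 CPM (prior count 2) was 0.17 between untreated and 0.31 between doxycycline mice for the members, and 0.11 and 0.14 for all genes. The median level was 20.3 CPM for the members and 28.0 CPM for all genes. After doxycycline the spread was 0.32 for type I type and 0.19 for interferon-gamma type members. In 30 of 46 members it was larger in the treated than in the untreated group, with Ifit1 (0.88), Oas1a (0.74) and Usp18 (0.72) the most variable. The largest difference between the 2 runs of a mouse had a median of 0.20 log2 units over the members. Untreated mouse 3, whose sort is in doubt, also had the highest erythroid marker sum of its group, 45.3 CPM against 5.84 and 10.3 CPM. The same mouse had the lowest sums of its group for 3 other lists. These were the myeloid (27.5 against 36.3 and 46.8 CPM), plasmacytoid dendritic cell (190.1 against 264 and 265 CPM) and NK-cell markers (0.998 against 1.81 and 1.81 CPM). The part of the sort or of these other cell types in the low values of that mouse was not tested. Without untreated mouse 3 and doxycycline mouse 2 together, a setting chosen after seeing the data, 21 members were higher and 11 lower.

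**Figure D3:**
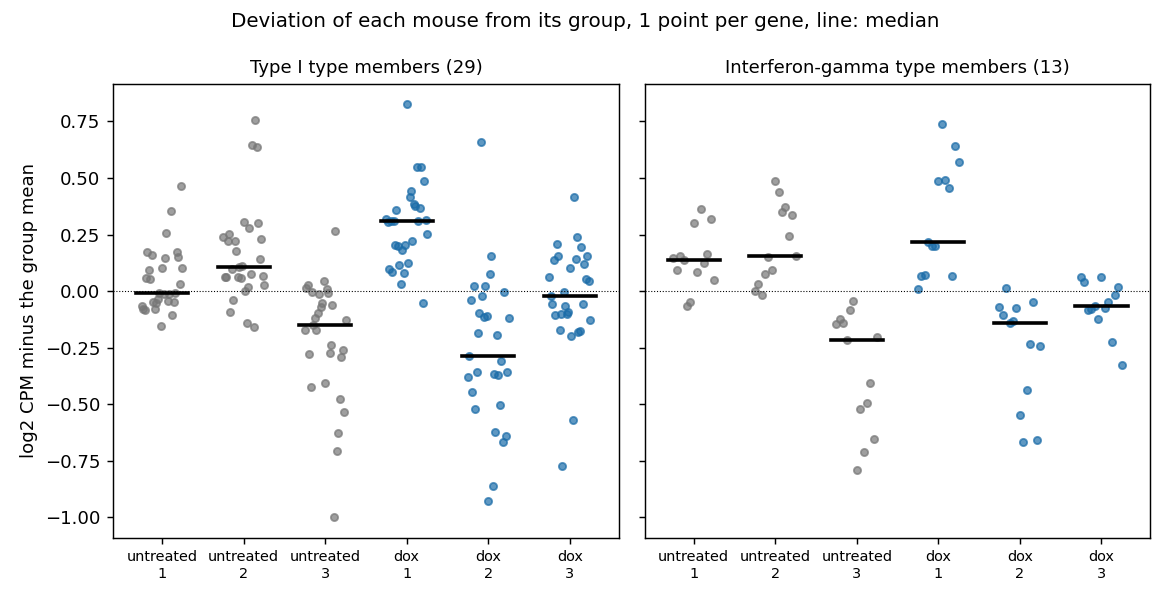
Each point is 1 gene: its log2 CPM in a mouse minus the mean of that mouse's group, for 29 type I type and 13 interferon-gamma type members, with the median as a line. Medians were 0.31 and 0.22 in doxycycline mouse 1, -0.29 and -0.14 in doxycycline mouse 2, and -0.15 and -0.21 in untreated mouse 3.

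Levels between genes were compared per kilobase of the deposited gene length (RPKM, mean of 3 mice). In untreated mice Bst2 was the most abundant member at 67.6 RPKM, followed by Ifngr1 (55.2), Ifi47 (53.9), Trim25 (38.0) and Irf1 (28.4). After doxycycline Ifngr1 led at 119 RPKM, then Sp100 (86.2) and Ifi47 (75.0). Bst2 moved from rank 1 to rank 13 (21.5 RPKM) and Zbp1 from rank 25 (5.10 RPKM) to rank 6 (29.7 RPKM). Trim25 and Irf1 kept ranks 4 and 5. Some genes that interferon is known to raise strongly were low in both groups. Ifit3 was at 0.286 and 0.797, Rsad2 at 1.19 and 2.77, Oasl2 at 1.32 and 0.349, and Ifit1 at 1.31 and 3.16 RPKM. Other interferon-stimulated members were not low: Isg15 was at 16.1 and 22.5, Ifit2 at 14.2 and 22.3, and Usp18 at 8.88 and 17.0 RPKM. Members at or above 10 RPKM numbered 18 of 47 untreated and 24 of 47 after doxycycline, whereas those at or above 1 RPKM numbered 42 and 38.

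**Figure D4:**
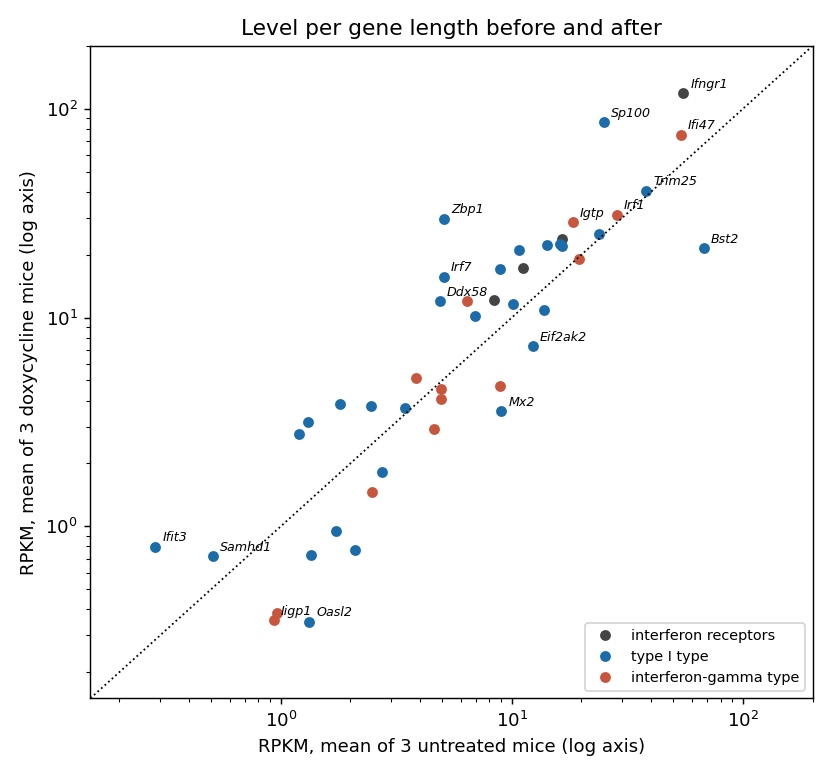
Mean RPKM in untreated (x) and doxycycline mice (y) for the 46 tested members, both axes logarithmic, with the line of equal level. Bst2, Mx2 and Oasl2 lie below the line, and Zbp1, Sp100 and Irf7 above it.

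Of 67 further genes of the pathway, 52 were tested, and 24 rose and 6 fell, with a median log2 fold change of 0.39. That is 57.7% called, beside 50.0% of all genes (24.8% higher, 25.2% lower). None of the interferon ligands on this list could be tested, and ligand genes outside the list were not looked at. Ifnb1 and 6 other ligand genes had no count, Ifnk had 1 count in doxycycline mouse 2, and Ifng had 0, 0 and 1 counts in the untreated and 1, 4 and 0 in the doxycycline mice. The kinases below the receptors were higher. Jak2 rose by 1.16 ± 0.09, Tyk2 by 0.70 ± 0.08 and Jak1 by 0.56 ± 0.08 log2 units (edgeR adjusted p = 6.9e-05, 0.00040 and 0.00096). The inhibitor Socs1 rose as well (log2 0.88 ± 0.20, edgeR adjusted p = 0.0081).

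The other genes of that list with the largest changes included targets of both interferons. Nlrc5, a transactivator of MHC class I genes, rose from 5.62 ± 0.418 to 23.4 ± 8.23 CPM (SD, n = 3 each; log2 2.06 ± 0.26, edgeR adjusted p = 0.00081). Ikbke, a kinase that activates IRF3 and IRF7, rose by 1.31 ± 0.14, Gbp4 by 1.18 ± 0.18 and Isg20, an RNA exonuclease, by 1.14 ± 0.15 log2 units. Gbp8 rose by 0.82 ± 0.21 and Uba7, the activating enzyme for ISG15, by 0.77 ± 0.10. Tor3a fell by 1.25 ± 0.15 log2 units, from 22.8 ± 1.30 to 9.56 ± 2.04 CPM. Mb21d1, encoding the DNA sensor cGAS, fell by 1.00 ± 0.26 log2 units from 65.5, 59.6 and 37.4 to 29.9, 20.3 and 31.3 CPM (edgeR adjusted p = 0.0190). The call of Mb21d1 did not hold when untreated mouse 1 (edgeR adjusted p = 0.0509) or 2 (0.0663) or doxycycline mouse 2 (0.0502) was left out.

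The grouping of neighbours and the genes plotted by mouse were chosen after their values were seen, as were the promoter stretches shown. Many members sit next to each other, and 23 lie in 8 groups of neighbours with gaps of at most 500 kb (GRCm38). The receptor genes Ifnar2, Ifnar1 and Ifngr2, on chromosome 16 from 91372783 to 91564007, rose together by 0.52 to 0.64 log2 units. Farther along the chromosome, Mx1 and Mx2 (97447035 to 97560901) both fell. The Ifit genes on chromosome 19 (34550550 to 34650009) had positive differences. Igtp and Irgm2, on chromosome 11 from 58199556 to 58222783, both rose. Elsewhere on chromosome 11, between 48865245 and 49096987, Ifi47 rose, Tgtp1 fell, and Irgm1 and Tgtp2 did not pass. This was the 1 group of the 8 with calls in both directions. The Oas group on chromosome 5 and the Gbp group on chromosome 3 had 1 called member each, so they could not show both. On chromosome 5 (120730333 to 120907544) Oas2 fell, while Oas1a (log2 -0.59) and Oas3 (0.61) had differences of opposite sign that did not pass. On chromosome 3 (142530336 to 142638008) Gbp3 fell, and Gbp7 and Gbp2 did not pass. On chromosome 16 from 35831892 to 35972621, Parp14 and Parp9 rose, and Dtx3l, which overlaps the end of Parp9, did not pass. Without a stated strand setting, reads in that overlap cannot be assigned to either gene.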

How the data were processed

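The values the authors deposited are unnormalized gene counts by Entrez identifier, 1 table per sequencing run, each with a gene length. The submitters' processing notes name the mm10 build, featureCounts and CASAVA 1.8.1. Aligner, annotation, strand setting and handling of reads with several matches: not given in the sources used here. The whole-series table equalled the per-library tables in 12 of 12 libraries. Gene symbols were taken from RefSeq's GRCm38.p6 annotation table (25275 of 27179 identifiers).

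The 2 runs were summed per mouse. The comparison used edgeR 4.0.16 in R 4.3.3, with TMM factors, filterByExpr, a robust quasi-likelihood F test without block, and Benjamini-Hochberg adjustment at 0.05 over 13134 genes. CPM uses TMM-scaled totals, and each SE was obtained from the log2 fold change and its F statistic. An exact permutation test of 3 against 3 mice cannot give a p below 0.1, so none was run. On simulated counts of 13134 genes (3 tables, 200 genes changed in each), changes of 1.5-fold were found by edgeR for 51% of the genes that had them, 2-fold changes for 72.7% and 4-fold changes for 95.3%. False calls made up 10.4% of edgeR's calls. The simulation changed 200 of 13134 genes, whereas 50.0% of the genes were called in the data. These rates therefore do not carry over to the real calls. DESeq2 1.42.0 and limma-voom (limma 3.58.1) were alternatives.

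The members and lists were chosen with earlier results of these data known. Values per mouse were given for receptors, transcription factors and members past the threshold with at least a 2-fold change, and for others where a comparison turned on them. Of the further pathway genes, the kinases, Ifng, Ifnb1 and the 10 largest called changes with at least 5 CPM were named. Ifnk was named after its count was seen. Protein sequences were not analysed here. 1 gene that this rule takes is not reported here.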

Additional observations from a re-analysis of the deposited data

How the results depend on the processing

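Other size factors, other filters, DESeq2, limma-voom, a dispersion fit without robust weights, single runs, the replicate block and leaving out each mouse were tried (16 settings), as was leaving out 2 mice together. Of 31 called members, 23 kept call and direction under each of these, 8 lost the call in 1 or more, and 0 reversed. Gbp9 (edgeR adjusted p = 0.0652) and Parp14 (0.0579) lost it without a filter, and also without untreated mouse 3 and doxycycline mouse 2 together (0.128 and 0.112). Ifit1, Usp18 and Oas3 passed with DESeq2 (adjusted p = 0.00331, 0.00219 and 0.0222), Gbp7 with limma-voom (0.0485), and Irf8 in run 1 alone (edgeR adjusted p = 0.0453). Leaving out 1 mouse gave 25 to 30 members called (17 to 22 higher, 7 to 11 lower), 3 to 7 interferon-gamma type members (2 to 4 higher, 1 to 4 lower) and 4 receptors. Over all genes 4869 to 6281 were then called, against 6571 with all mice. The sign changed for 4 members that had not passed: leaving out 1 mouse gave log2 fold changes of -0.0308 to 0.146 for Dtx3l, -0.177 to 0.356 for Xaf1, -0.152 to 0.0457 for Irgm1 and -0.381 to 0.0760 for Gbp2, and limma-voom gave -0.0149 for Xaf1. The cause was not tested. With only the bases before the start, 16 in place of 19 members held the ISRE, and 3 in place of 5 of the 6 that fell. A prior count of 0.5 left the median spread at 0.17 and 0.31. Same-numbered mice did not pair: their deviations correlated at 0.16, -0.01 and -0.10. With the replicate block, 31 members were called (22 higher, 9 lower), Usp18 passed (edgeR adjusted p = 0.0438), and Mx1 did not (0.0624).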
